A study of Mus musculus with 6 samples.

Results

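The genes described are the oestrogen receptors Esr1 and Esr2 and the oestrogen targets Rerg, Greb1 and Pgr, 5 genes taken by symbol from a table of 23478, where each has a row. They were chosen by function and with the levels of both groups already known, so their differences between the groups are given as a description. A call given for them from the fit over all genes is part of that description and is no test of them. Oestrogen acts through nuclear receptors, transcription factors that bind the hormone and then bind DNA at oestrogen response elements, where they recruit coactivators or corepressors. Esr1 encodes oestrogen receptor alpha and Esr2 encodes oestrogen receptor beta. Rerg encodes a RAS-like GTPase, Greb1 a receptor cofactor and Pgr the progesterone receptor, and all 3 are known as targets of oestrogen in human breast cancer cells. Tamoxifen, which mice of inducible Cre lines receive to switch on the recombinase, is itself a ligand of these receptors.

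RNA had been sequenced from alveolar type 2 (AT2) cells, the lung epithelial cells that make surfactant, purified from adult mice of mixed strain background by depletion of other cells. The 3 Abca3 cKO libraries came from mice with a conditional deletion of Abca3, the lipid transporter of the lamellar body, and the 3 control libraries came from mice described only as controls. Mice of both groups had received tamoxifen, over 6 days before harvest by the sample labels, while the series' design speaks of 6 days after tamoxifen. The labels give neither the Cre line, the cells in which it acts, nor the genotype of the controls. They also do not say whether replicates were separate animals, so errors and p-values measure only the spread between these libraries. By its sex-linked genes, given below, control replicate 2 did not come from the same animal as the other controls. Among the other libraries the spread may be technical.

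The libraries held 23531330 to 26071229 counts. Markers of AT2 cells summed to 74953 to 86580 CPM (counts scaled to a common library size with TMM factors) in the Abca3 cKO libraries and to 66327 to 78041 CPM in the controls. Markers of club cells summed to a similar range, 53860 to 85131 CPM in Abca3 cKO and 65495 to 83703 CPM in controls. The club cell sum was above the AT2 sum in Abca3 cKO replicate 1 and control replicates 1 and 2. It was below the AT2 sum in the other libraries. Most of it came from the gene Scgb1a1, which averaged 60835 CPM in Abca3 cKO and 67103 CPM in controls. Control replicate 2 differed from the other 5 libraries in genes of the sex chromosomes. Xist, which silences an X chromosome in females, ran from 5.36 to 7.55 CPM in Abca3 cKO, averaged 8.93 CPM in 2 controls and reached 2345 CPM in control replicate 2. No count fell on Ddx3y, Kdm5d or Eif2s3y of the Y chromosome in that library, whereas the other 2 controls averaged 36.9 to 45.9 CPM. Values are therefore also given without it. The part of sex in the results was not tested.

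Upstream sequences are shown for Esr1, whose level was apart between the groups, and for Greb1, whose level overlapped, since oestrogen receptors bind DNA at the palindrome GGTCANNNTGACC. Promoter windows from RefSeq on GRCm38.p6 were found for 4 of the 5 genes, all but Rerg, and both Esr1 and Greb1 have 2 annotated starts there. Each sequence is the 250 bases before a start, on the strand of the gene, with capitals marking the half-site GGTCA or its reverse complement TGACC.
Esr1, start 1, chr10:4611739-4611988, plus strand: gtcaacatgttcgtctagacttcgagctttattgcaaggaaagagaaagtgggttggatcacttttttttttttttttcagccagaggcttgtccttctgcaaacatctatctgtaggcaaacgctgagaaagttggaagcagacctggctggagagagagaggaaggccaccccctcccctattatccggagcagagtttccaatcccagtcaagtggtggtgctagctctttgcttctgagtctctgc
Esr1, start 2, chr10:4709908-4710157, plus strand: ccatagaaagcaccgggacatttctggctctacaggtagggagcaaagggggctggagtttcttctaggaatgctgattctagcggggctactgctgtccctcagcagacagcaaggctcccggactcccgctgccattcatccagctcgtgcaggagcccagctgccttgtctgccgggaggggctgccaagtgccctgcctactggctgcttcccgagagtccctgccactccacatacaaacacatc
Greb1, start 1, chr12:16800887-16801136, minus strand: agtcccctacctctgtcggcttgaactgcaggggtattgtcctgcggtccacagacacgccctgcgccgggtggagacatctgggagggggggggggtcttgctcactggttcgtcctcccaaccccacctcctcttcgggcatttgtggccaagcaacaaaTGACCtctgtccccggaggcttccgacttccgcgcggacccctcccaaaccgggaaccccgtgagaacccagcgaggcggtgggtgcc
Greb1, start 2, chr12:16757240-16757489, minus strand: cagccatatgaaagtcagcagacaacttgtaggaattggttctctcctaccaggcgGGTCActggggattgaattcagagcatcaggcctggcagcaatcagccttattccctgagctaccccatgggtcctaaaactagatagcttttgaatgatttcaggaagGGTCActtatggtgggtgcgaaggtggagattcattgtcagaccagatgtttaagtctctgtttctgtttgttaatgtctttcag
Neither Esr1 window holds a half-site on either strand, while the Greb1 windows hold 1 and 2. The Esr2 window holds 2 and the Pgr window 0. The palindrome itself is in none of these 6 windows, and in 0.0639% of 32851 such windows of mouse genes. A half-site stands in 35.2% of them, and 2 or more half-sites in 8.16%. Each palindrome holds a half-site on both of its arms.

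Esr1 and Rerg were several-fold higher in Abca3 cKO libraries, and Esr2, Greb1 and Pgr were not separated between the groups. The plot of levels by library shows all 5 genes. In the edgeR fit over all genes, 4 of the 5 passed the filter on low counts and 2 of those, Esr1 and Rerg, passed an adjusted p of 0.05, a threshold that 0.380% of the 14477 genes tested passed in either direction and 0.262% passed as higher. The CPM of the groups did not overlap for the same 2 genes, against 14.1% of the genes tested. The genes had been chosen on this contrast, so these counts are not evidence about oestrogen genes as a group. In such bulk libraries, more cells of a type and more RNA per cell cannot be told apart.

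**Figure D1:**
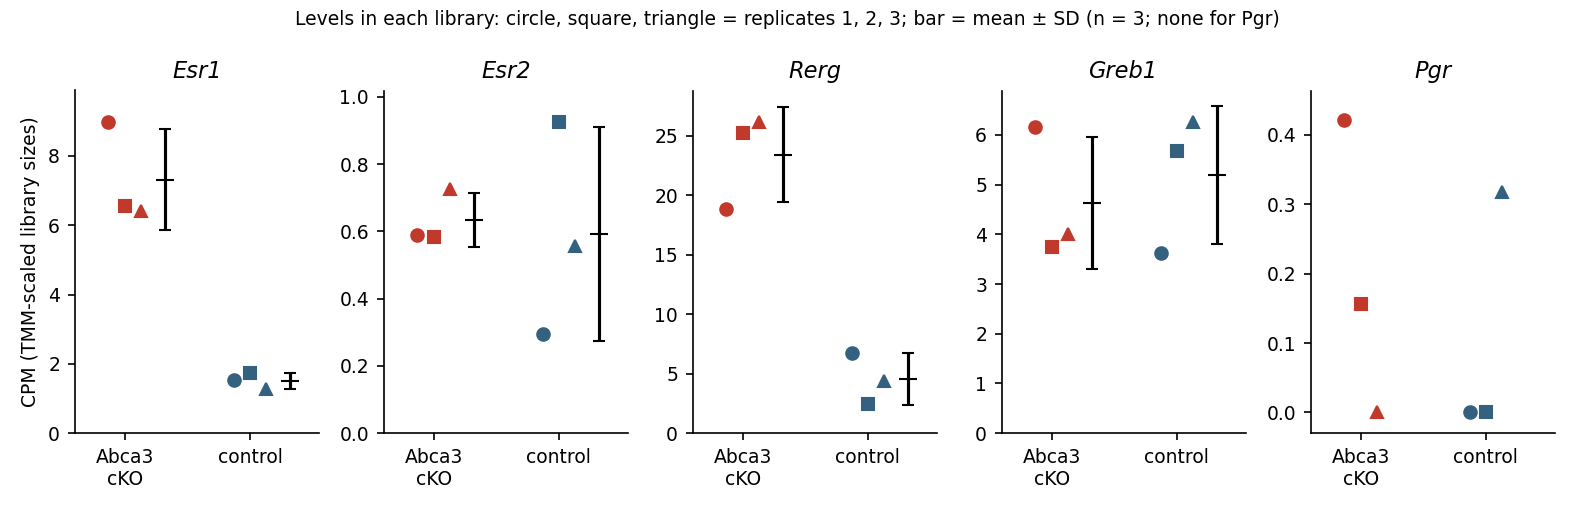
CPM of Esr1, Esr2, Rerg, Greb1 and Pgr in each of the 6 libraries, with Abca3 cKO in red on the left and control in blue on the right of each panel. Points are replicates 1 to 3, and bars are mean ± SD (n = 3 per group), left out for Pgr, which had 0 counts in 3 libraries. The groups are apart for Esr1 and Rerg and overlap for Esr2, Greb1 and Pgr.

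Esr1 (chromosome 10, 4611593 to 5005614, plus strand, GRCm38) had 213, 168 and 159 counts in the Abca3 cKO libraries, against 36, 45 and 32 counts in the controls. All 3 Abca3 cKO libraries were above all 3 controls, and none of its exons overlaps another annotated gene. In CPM it stood at 7.32 ± 1.45 in Abca3 cKO and 1.51 ± 0.234 in controls (SD, n = 3 each), a 4.85-fold ratio. The fitted log2 fold change was 2.27 (SE 0.318). Without control replicate 2, the control with the highest Esr1 level, it was 2.39.

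The second receptor gene, Esr2 (chromosome 12, 76120419 to 76177259, minus strand), was near the limit of detection. It had 14, 15 and 18 counts in Abca3 cKO libraries and 7, 24 and 14 in controls. The controls spanned the whole range of the Abca3 cKO values, with control replicate 2 the highest library of all. The log2 fold change was 0.09 (SE 0.748), and it was 0.57 without control replicate 2, −0.22 without control replicate 1 and −0.02 when Abca3 cKO replicate 3 was left out. No change in Esr2 was detected, and these counts and this spread between controls leave the size of its fold change uncertain.

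Rerg (chromosome 6, 137054825 to 137170497, minus strand) was the most abundant of the 5. It had 446, 647 and 648 counts in the Abca3 cKO libraries, against 160, 63 and 111 in the controls. The lowest Abca3 cKO library, replicate 1, was 18.8 CPM and the highest control, replicate 1, was 6.76 CPM, so the groups were apart. The mean was 23.4 ± 3.99 CPM in Abca3 cKO and 4.53 ± 2.17 CPM in controls (SD, n = 3 each), with a log2 fold change of 2.37 (SE 0.312). Control replicate 2 was the lowest library, and without it the log2 fold change was 2.07.

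Greb1 (chromosome 12, 16670615 to 16800886, minus strand), a target that answers oestrogen early in human breast cancer cells, had 146, 96 and 99 counts in Abca3 cKO libraries and 86, 147 and 158 in controls. A high library and a low library stood in each group. The log2 fold change was −0.17 (SE 0.319), and −0.10 without control replicate 2. Its size depended on single libraries, from −0.43 with Abca3 cKO replicate 1 left out, or −0.37 with control replicate 1 left out, to −0.01 with control replicate 3 left out. Its exons overlap a gene on the opposite strand, Gm48140, and reads of the 2 cannot be told apart without strand.

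Pgr (chromosome 9, 8899833 to 8968611, plus strand), a classic oestrogen target of the uterus, had 10, 4 and 0 counts in Abca3 cKO libraries and 0, 0 and 8 in controls. The limit that a count of 0 allows, 3 counts, is 0.121 CPM in Abca3 cKO replicate 3, 0.127 CPM in control replicate 1 and 0.116 CPM in control replicate 2. Pgr did not pass the filter on low counts and no fold was computed.

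Deposited RPKM (reads scaled to gene length and library size) allow levels to be compared between genes, within limits. The unit failed for Scgb1a1, whose lowest RPKM was 0 in both groups although its lowest count was 1.19e+06. The scaling of Esr1 also differed between the groups, as described below. In Abca3 cKO libraries the order was Rerg (4.94 to 6.72 RPKM), Esr1 (1.09 to 1.51), Greb1 (0.258 to 0.459), Esr2 (0.0713 to 0.124) and Pgr (0 to 0.0229). In controls it was Rerg (0.776 to 2.05 RPKM), Greb1 (0.25 to 0.477), Esr1 (0.131 to 0.219), Esr2 (0.0343 to 0.0840) and Pgr (0 to 0.0157). Neighbours in either order did not overlap within their group. Esr1 and Greb1 changed places between the groups: Esr1 was 3.28 to 4.22 times the RPKM of Greb1 in each Abca3 cKO library and 0.275 to 0.669 times in each control. Among 23444 genes ranked by mean RPKM, Rerg was 4497th in Abca3 cKO and 9481st in controls, and Esr1 was 9741st and 13380th in the same order.

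Deposited RPKM and the CPM computed from the deposited counts did not give Esr1 the same ratio. Its mean RPKM was 1.28 ± 0.211 in Abca3 cKO and 0.172 ± 0.0439 in controls (SD, n = 3 each), a 7.42-fold ratio, while its CPM ratio was 4.85-fold. The number of counts behind each RPKM unit of Esr1 was 141, 154 and 128 in Abca3 cKO libraries, against 215, 206 and 244 in controls. After centring each library on its median gene this was a 0.644-fold ratio (log2 −0.63), and 0.756% of 11897 genes with at least 30 counts in each library had a ratio as far from 1. Over these genes the median size of the difference was 0.045 on the log2 scale. Esr2 and Pgr, with fewer than 30 counts, were outside this comparison. Esr2 had 175, 210 and 145 counts per RPKM unit in Abca3 cKO libraries and 204, 286 and 258 in controls. These also tended lower in Abca3 cKO, though the groups overlapped. The Esr2 ratio of means was 1.60-fold in RPKM and 1.07-fold in CPM.

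Rerg moved the other way and by less, with 90.2, 106 and 96.5 counts per RPKM unit in Abca3 cKO libraries and 78.2, 81.2 and 81.6 in controls, a 1.23-fold ratio after centring. The groups did not overlap for Esr1 and Rerg, against 13.6% of the 11897 genes. Greb1 overlapped, at 299 to 372 counts per RPKM unit in Abca3 cKO and 331 to 344 in controls. A gene counted and scaled with the same length in each library would keep this number up to depth. GENCODE lists 4 coding transcripts of Esr1, from 2612 to 6339 bases, and 5 of Rerg, from 391 to 2262 bases, and how the RPKM divided reads among transcripts is not given in the sources used here.

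**Figure D2:**
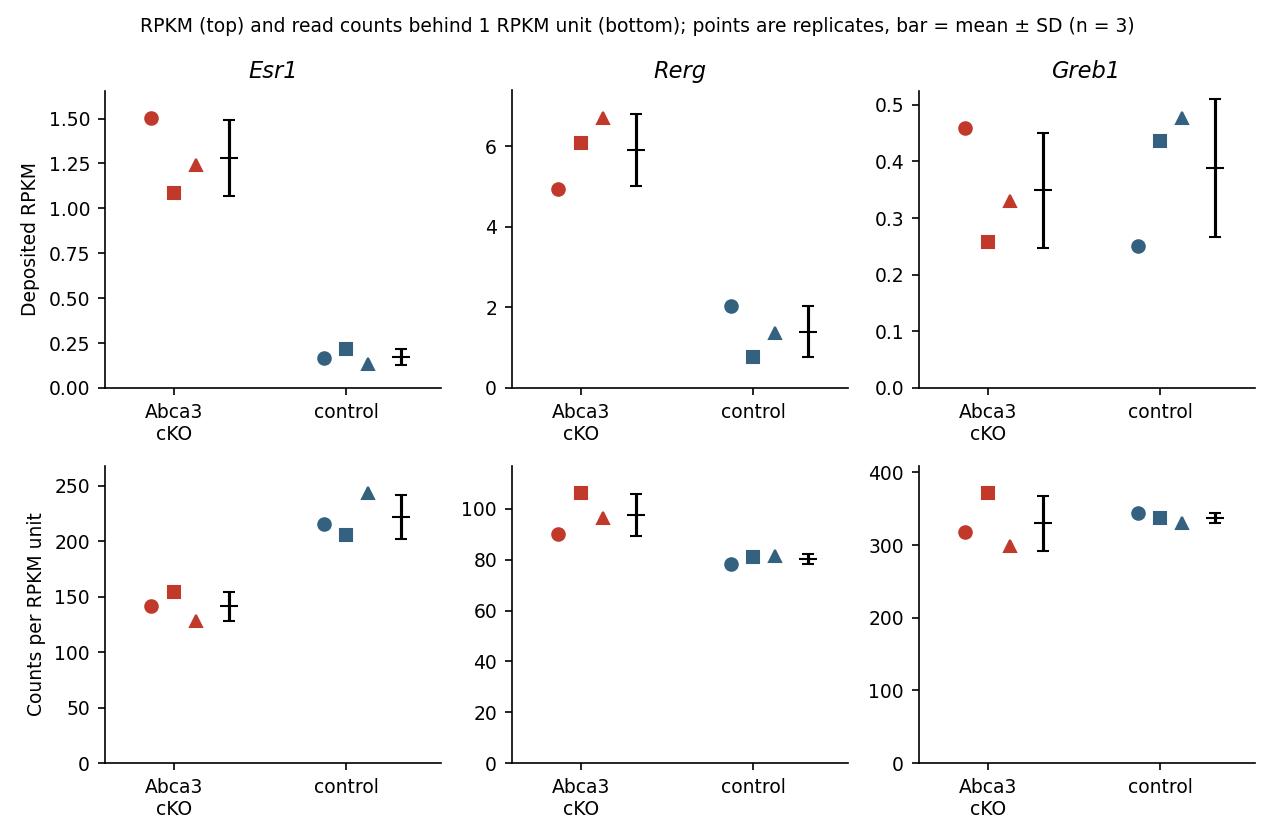
Deposited RPKM (top row) and read counts behind 1 RPKM unit (bottom row) of Esr1, Rerg and Greb1 in each library, with Abca3 cKO in red on the left and control in blue on the right. Points are replicates, bars are mean ± SD (n = 3 per group). Esr1 took 128 to 154 counts per RPKM unit in Abca3 cKO and 206 to 244 in controls.

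Inducible Cre recombinases are commonly fused to the hormone-binding part of an oestrogen receptor, so a transgene of that kind can carry receptor sequence. The tables give a single count per gene and no positions of reads. Reads from such a fusion and reads from the Esr1 gene cannot be told apart here, and the labels do not say which mice carried a transgene. Which part of the Esr1 difference came from either source was not tested.

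Stromal cells of several organs are known to express oestrogen receptor alpha, so fibroblast markers were summed in each library. The 10 fibroblast markers summed to 1837, 1266 and 1303 CPM in Abca3 cKO libraries, against 1181, 886 and 1116 CPM in controls, which did not overlap. The log2 fold changes had a median of 0.43 and lay above 0 for all 10, from 0.10 for Lum to 0.80 for Tcf21, though Lum stood at −0.04 without control replicate 2. None of the 10 passed an adjusted p of 0.05 with edgeR, though 6 had an unadjusted p under 0.05, all higher, against 9.23% of all genes tested in either direction and 5.07% as higher. By DESeq2, whose calls took 1.66% of all genes, Tcf21 alone passed. Decorin (Dcn), the highest in CPM, stood at 364 CPM in Abca3 cKO and 274 CPM in controls. No defining fibroblast marker was at 0. Abca3 cKO replicate 1 had the highest fibroblast sum and the highest Esr1 of its group but the lowest Rerg. Control replicate 2 had the lowest fibroblast sum of its group, with the highest Esr1 and the lowest Rerg, and control replicate 1 had the highest sum and the highest Rerg.

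Smooth muscle markers summed to 148 to 193 CPM in Abca3 cKO and 133 to 147 CPM in controls, also without overlap, and 5 of 7 log2 fold changes were positive. Mesothelial markers summed to 296 to 587 CPM in Abca3 cKO and 262 to 320 CPM in controls, which overlapped. Endothelial markers (45.6 to 92.1 CPM in Abca3 cKO, 60.8 to 101 CPM in controls) and immune markers (21.8 to 28.8 and 22.7 to 32.0 CPM in the same order) overlapped too. AT2 markers were above 0 for 9 of 10 genes (median log2 fold change 0.34) and markers of alveolar type 1 cells, the thin gas exchange cells, below 0 for all 8 (median −0.44). Such shifts were thus not confined to fibroblast markers. Club and ciliated cell markers had median log2 fold changes of −0.11 and −0.06, and none had an unadjusted edgeR p under 0.05. The ciliated sums, 246 to 291 CPM in Abca3 cKO and 252 to 288 CPM in controls, overlapped. An unadjusted edgeR p under 0.05 was found for 7 AT2 markers, 6 higher and 1 lower, and for 4 alveolar type 1 markers, all lower. Over all genes tested the share was 5.07% higher and 4.16% lower. The AT2 marker that was lower was Sftpc, at 17536 CPM in Abca3 cKO and 22507 CPM in controls. Its log2 fold change was −0.36 (SE 0.154), and its groups overlapped. Among all these markers edgeR called only Napsa, a protease gene of AT2 cells, at 522 ± 39.0 CPM in Abca3 cKO and 330 ± 29.7 CPM in controls. By mean CPM over all libraries, the highest of their lists were Slc34a2 for AT2 cells, Scgb1a1 for club cells and Clic5 for alveolar type 1 cells. They stood at 25969, 60835 and 583 CPM in Abca3 cKO and at 19820, 67103 and 887 CPM in controls, in that order. In controls Sftpc, at 22507 CPM, was above Slc34a2. Acta2 led the smooth muscle list (69.2 and 54.4 CPM) and Upk3b the mesothelial list (188 and 135 CPM). The part that these cells played in the Esr1 and Rerg levels was not tested.

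The other genes of the oestrogen pathway were described by lists written by function, and all lists were compared in the same fit. Over all 14477 genes tested the median log2 fold change was 0.0018, and 7277 of the values were positive. Of these genes 0.117% were called lower, and an unadjusted p under 0.05 was found for 9.23%, the background for the counts of each list. With edgeR no gene rose in any of the 7 lists, and 3 fell, Areg, Myc and Rasd2.

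**Figure D3:**
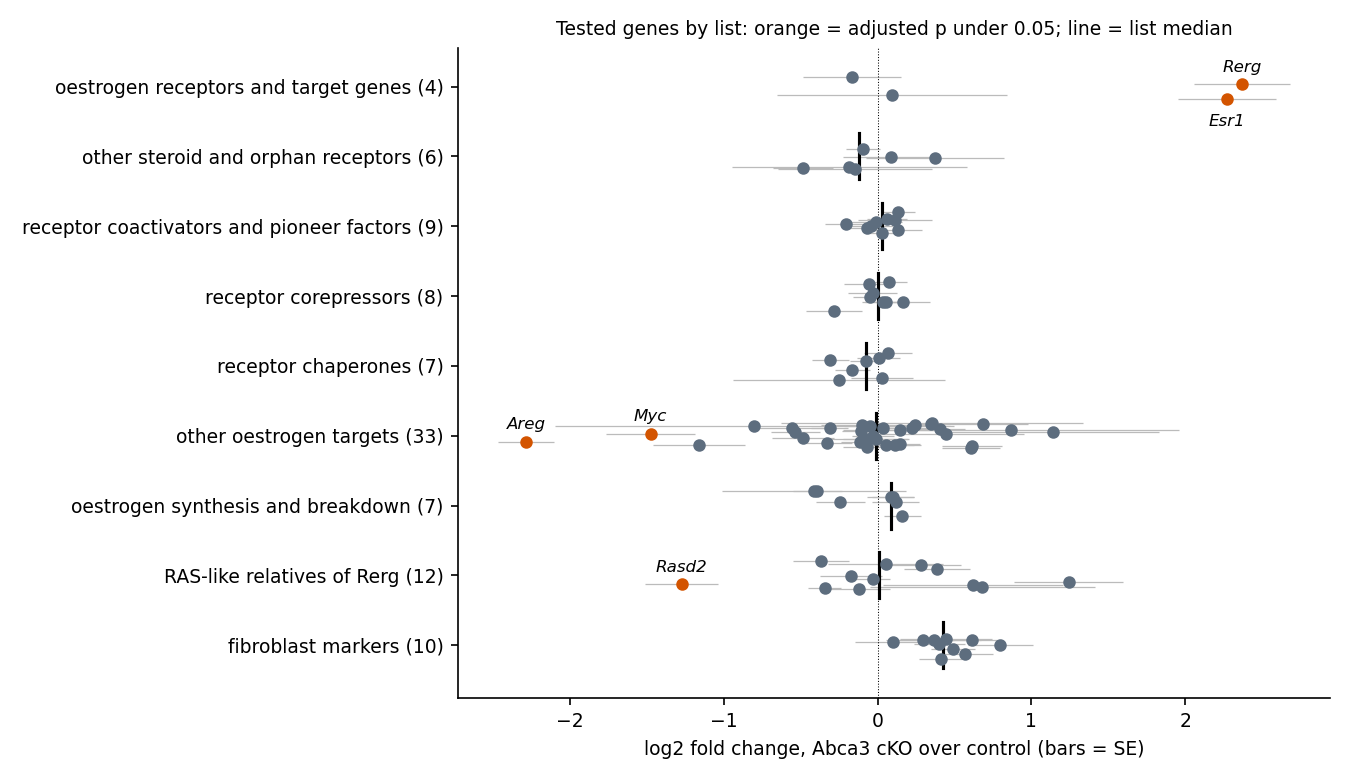
Log2 fold change (Abca3 cKO over control, bars are SE) of the tested genes of each list, with the number tested in brackets, black lines at list medians and orange for genes with an adjusted p under 0.05. Esr1 and Rerg stand at 2.27 and 2.37, the lists of receptor cofactors and chaperones stay between −0.31 and 0.16, and all 10 fibroblast markers lie above 0.

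Among 7 other steroid and orphan receptor genes, 6 were tested and none passed with edgeR or DESeq2, while 1 had an unadjusted p under 0.05. That gene was Nr3c2, the mineralocorticoid receptor, at 12.1 to 18.9 CPM in Abca3 cKO and 19.4 to 24.0 CPM in controls. Its log2 fold change was −0.48 and its edgeR adjusted p was 0.439 (SE 0.195). Nr3c1, the glucocorticoid receptor, was the most abundant of these receptors at 123 ± 5.59 CPM in Abca3 cKO and 131 ± 12.6 CPM in controls. Esrra, an orphan relative of the oestrogen receptors, had a log2 fold change of 0.37 (SE 0.449). The list median was −0.12. Esrrb had 0 counts in all libraries.

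Cofactors are the proteins through which the receptors act on transcription. Of 12 coactivator and pioneer factor genes 9 were tested, with a median log2 fold change of 0.03. Foxa1, which opens chromatin for the receptor, was at 77.8 ± 10.8 CPM in Abca3 cKO and 89.7 ± 10.9 CPM in controls (log2 fold change −0.20, SE 0.135). Ncoa1, a steroid receptor coactivator, had a log2 fold change of 0.14 (SE 0.109), the histone arginine methyltransferase gene Carm1 of 0.13 (SE 0.159) and the acetyltransferase gene Crebbp, the most abundant per length, of −0.04 (SE 0.140). All 8 corepressor genes were tested, with a median of 0.00058. Lcor, a ligand-dependent corepressor, had a log2 fold change of −0.29 (SE 0.180), Hdac3 of 0.16 (SE 0.174) and Ncor1 of 0.07 (SE 0.117). None passed with edgeR or DESeq2 in either list, and none had an unadjusted p under 0.05.

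Chaperones that hold steroid receptors ready for ligand had a median of −0.08 over 7 tested genes. None passed with edgeR or DESeq2 and 1 had an unadjusted p under 0.05, Hsp90aa1, at 311 ± 38.2 CPM in Abca3 cKO and 385 ± 11.3 CPM in controls (a difference of −0.31 on the log2 scale, SE 0.118, edgeR adjusted p = 0.403). Hsp90ab1 differed by −0.16 on the log2 scale (SE 0.111), and Ptges3, a cochaperone gene, by −0.08 (SE 0.103). Hspa8, the most abundant per length, had 0.03 (SE 0.201).

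Of 38 further genes known as oestrogen targets, 33 were tested. With edgeR 2 fell and none rose, 12 had an unadjusted p under 0.05 (5 higher and 7 lower, against 5.07% higher and 4.16% lower over all genes), and 16 of the 33 had positive values, around a median of −0.01. Areg, which encodes the EGF receptor ligand amphiregulin, ran from 5.49 to 6.89 CPM in Abca3 cKO, against 26.1 to 32.9 CPM in controls. It fell by 2.29 on the log2 scale (SE 0.184, edgeR adjusted p = 7.36e-05) and was called in all 13 alternatives. Myc, a growth-promoting transcription factor gene, ran from 4.26 to 7.03 CPM in Abca3 cKO, against 9.80 to 20.2 CPM in controls. It fell by 1.48 on the log2 scale (SE 0.288, edgeR adjusted p = 0.0434), a call that was lost when any of Abca3 cKO replicates 1 and 2 or control replicates 1 and 2 was left out. Myc was also not called with the replicate block or in any of the 3 limma fits on RPKM. Over all alternatives Myc stayed between −1.73 and −1.16 on the log2 scale.

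Adora1, an adenosine receptor gene, stood at 8.16 ± 3.12 CPM in Abca3 cKO and 18.3 ± 5.65 CPM in controls (SD, n = 3 each). The edgeR adjusted p was 0.162, and DESeq2 called it lower. Muc1, the mucin that was the most abundant per length of these targets, stood at 2602 ± 285 CPM in Abca3 cKO and 2041 ± 75.7 CPM in controls (log2 difference 0.35, SE 0.120, edgeR adjusted p = 0.337). Tff1 and Tff3, trefoil peptide genes that are standard targets in human breast cancer cells, had 0 counts in all libraries.

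Genes that make and break down oestrogen were mostly sparse, with 12 of 14 measured and 7 tested. None passed with edgeR or DESeq2, 1 had an unadjusted p under 0.05 and the median log2 fold change was 0.09. Cyp19a1, the aromatase that makes oestrogen from androgen, had 0 counts in all libraries. Cyp1b1, which hydroxylates oestradiol, stood at 31.7 ± 3.49 CPM in Abca3 cKO and 41.6 ± 7.34 CPM in controls (log2 difference −0.39, SE 0.161, edgeR adjusted p = 0.452). The log2 fold change was −0.24 (SE 0.160) for Hsd17b12, a hydroxysteroid dehydrogenase family gene, and 0.10 (SE 0.137) for Hsd17b4, the most abundant per length.

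RAS-like genes are small GTPases related to Rerg. Of 15, 14 had a row and 12 were tested, with a median log2 fold change of 0.01, 6 positive and 6 negative. Rasd2 fell to between 12.4 and 17.8 CPM in Abca3 cKO, against 27.4 to 52.8 CPM in controls (log2 difference −1.28, SE 0.239, edgeR adjusted p = 0.0446). Its call held without control replicate 2 and was lost in each of the other 5 fits that left out a library and in the 3 limma fits on RPKM, with values between −1.46 and −0.94 over all alternatives. Rasl11a stood at 38.5 ± 8.74 CPM in Abca3 cKO and 16.3 ± 8.64 CPM in controls (log2 difference 1.24, SE 0.353, edgeR adjusted p = 0.286), and DESeq2 called it higher, as did edgeR without control replicate 2 (log2 fold change 1.77). Nras differed by −0.34 on the log2 scale (SE 0.106, edgeR adjusted p = 0.254) and Rras, the most abundant per length, by −0.37 (SE 0.181). Rergl, the closest relative by name, had 0 counts in all libraries.

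The coding genes beside each of the 5 genes were set beside them. Ccdc170, 49.4 kb before Esr1, was at 10.4 ± 1.27 CPM in Abca3 cKO and 11.9 ± 4.60 CPM in controls, and Syne1, 15.3 kb beyond it, at 28.2 ± 1.12 and 27.2 ± 1.32 CPM in the same order. Pde6h and Ptpro, the coding genes on either side of Rerg, 86.0 and 81.8 kb away, averaged 0.0281 and 0.138 CPM in Abca3 cKO and 0.0257 and 0.118 CPM in controls. Of the 6 tested neighbours of the 5 genes, none passed with edgeR, none had an unadjusted p under 0.05, and their log2 fold changes lay between −0.19 and 0.16.

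Genes whose levels followed Rerg most closely over the 6 libraries were found by the root mean square difference of centred log2 CPM, among 13336 other genes of at least 1 CPM on average. The 5 nearest were Xlr3b (0.48), Rundc3b (0.51), Atp6v1g3 (0.52), Pcdh12 (0.53) and Itih4 (0.58), against 1.30 for Rerg about its own mean. Itih4, an acute-phase plasma protein gene, was the abundant exception, at 970 ± 59.8 CPM in Abca3 cKO and 352 ± 71.6 CPM in controls, and passed an adjusted p of 0.05. The other 4 averaged 1.53 to 5.68 CPM in Abca3 cKO and 0.428 to 1.74 CPM in controls, and none passed.

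The 3 nearest to Esr1 were Cib2 (0.35), Rundc3b (0.40) and Cpa3 (0.46), against 1.12 for Esr1 about its own mean. All 3 averaged 2.39 to 2.44 CPM in Abca3 cKO and 0.653 to 0.773 CPM in controls, and none passed. The 3 nearest to Greb1 were Frg1 (0.045), Zc3h10 (0.11) and Cmtr2 (0.11), against 0.34 for Greb1 about its own mean. All members and genes compared share the same 6 libraries.

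**Figure D4:**
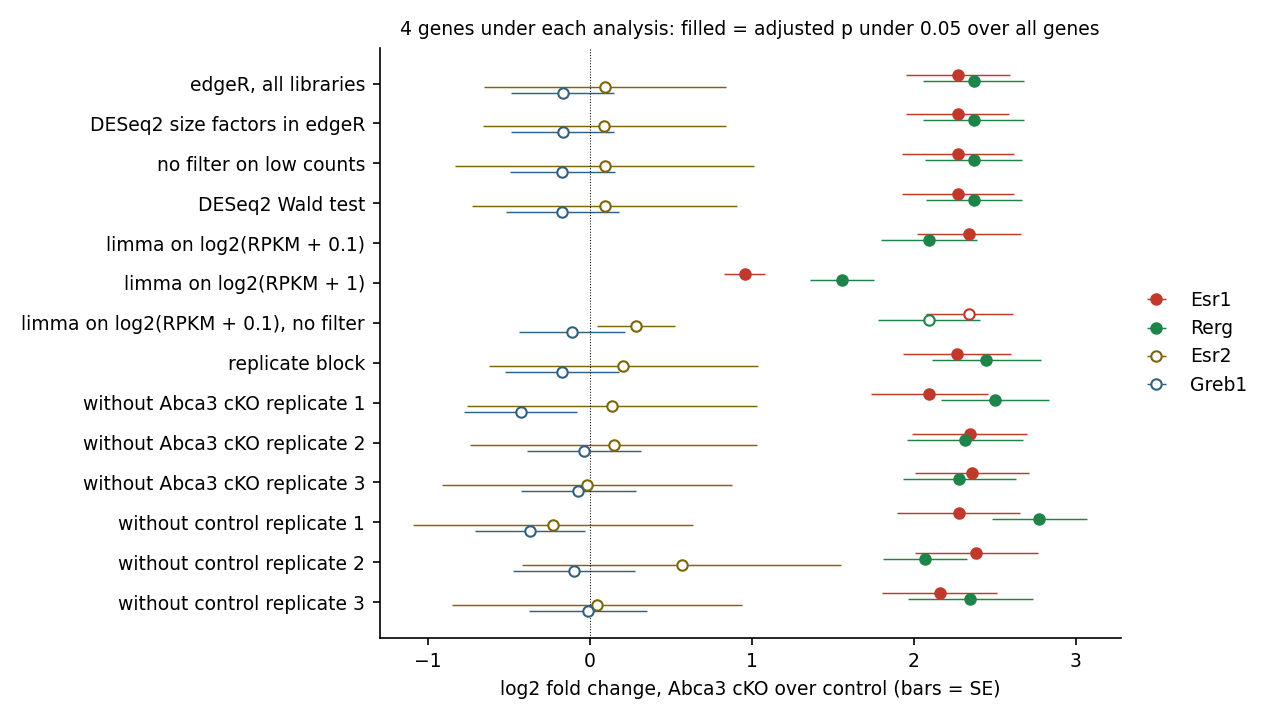
Log2 fold change (Abca3 cKO over control, bars are SE) of Esr1, Rerg, Esr2 and Greb1 under each analysis, filled where the adjusted p over all genes was under 0.05. Esr1 ran from 0.96 to 2.39 and Rerg from 1.56 to 2.77 over the alternatives, and both were called in each fit without a library, whereas Esr2 ran from −0.22 to 0.57 and Greb1 from −0.43 to −0.01. Esr2 and Greb1 have no point where the RPKM filter left them out.

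The plot of settings shows that Esr1 and Rerg passed an adjusted p of 0.05 in 12 of 13 alternatives, including the 6 fits that left out a library. Both genes were chosen with this contrast known, and the alternatives reuse the same libraries. These calls therefore describe the effect of the settings and are no further evidence for the differences. The alternative without these calls was limma on unfiltered RPKM, which called 3 genes in all. The lowest log2 fold changes, 0.96 for Esr1 and 1.56 for Rerg, came from log2(RPKM + 1). For Esr1 the added 1 is near the mean in Abca3 cKO (1.28 RPKM) and above that in controls (0.172 RPKM). For Rerg it is below both means, 5.91 RPKM in Abca3 cKO and 1.39 RPKM in controls.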

How the data were processed

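The authors deposited whole-number read counts per gene, not normalized, and RPKM, which scale reads to gene length and library size. Per the submitters' processing notes, the tools were DESeq, Cufflinks 2.0.2, TopHat2 2.0.8 and Bowtie2 2.1.0, on build mm10 (GRCm38). Their roles, the read counter and the strand setting were not stated. Per the labels' protocols, RNA was amplified with the NuGEN Ovation kit before Nextera XT libraries, so counts are of amplified reads.

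Tests on counts used edgeR 4.0.16 under R 4.3.3, with filterByExpr, TMM, robust quasi-likelihood fit on group alone, two-sided, Benjamini-Hochberg over 14477 genes, threshold 0.05. The SE is the size of the log2 fold change divided by the square root of F. CPM use TMM-scaled sizes. No library repeated another of its group (chi-square per degree of freedom 30.5 to 52.1). Alternatives were DESeq2 1.42.0, limma 3.58.1 on log2 RPKM, other scaling and filters, a replicate block and leaving out each library. Annotation came from GENCODE M21 and promoter sequences from RefSeq.

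The genes and lists were chosen with earlier results of these data known. Named genes were all 5 members; from each list the called genes, those with the smallest p until 3 were named and the most abundant per length; the coding genes beside each member; and the nearest profiles. Values for Lum, Tcf21, Tff1, Tff3, Cyp19a1, Esrrb and Rergl were chosen after they were seen. A floor of 3 counts covers counting error only. Hras, Sts and Hsd17b8 were not analysed here. A gene of the oestrogen synthesis and breakdown list that this rule names is not reported here.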

Additional observations from a re-analysis of the deposited data

How the results depend on the processing

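The number of genes called was 55 by edgeR. It was 132 without a filter on low counts, 241 by DESeq2, 28 by limma on log2(RPKM + 0.1), 27 on log2(RPKM + 1) and 3 on unfiltered RPKM, and 21 to 50 when a library was left out. The causes were not tested, beyond the change in genes and samples that each setting makes. Esr1 (2.34) and Rerg (2.09) lost their call on unfiltered RPKM, and Esr2 and Greb1 were called under no alternative. Leaving out a library gave log2 fold changes of 2.10 to 2.39 for Esr1, 2.07 to 2.77 for Rerg, −0.43 to −0.01 for Greb1 and −0.22 to 0.57 for Esr2, whose sign turned without Abca3 cKO replicate 3 (−0.02) or control replicate 1 (−0.22). List medians over these fits ran from −0.38 to 0.082 for other receptors, −0.032 to 0.055 for other oestrogen targets and −0.075 to 0.15 for oestrogen synthesis and breakdown.

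With the replicate number as a block 33 genes were called, 30 of them among the 55, with Esr1 at 2.26 and Rerg at 2.45, both still called, while Myc lost its call. Deviations from the group mean were correlated across genes, with r of 0.076, −0.030 and −0.027 for libraries of the same number. For libraries of unlike number r ran from −0.082 to 0.105. With so few libraries in each group, these values cannot tell whether the numbers pair libraries. Pgr was fitted only without the filter and is left out here. Esr2 had 7 to 24 counts per library, and the part of depth in its spread was not tested.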
